A study of Drosophila melanogaster with 7 samples.

Results

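The difference between 2 copies and 1 copy of a heat-shock GAL4 transgene was described in salivary glands of the fly line P{hs-GAL4}89. The members were the 2 line 89 arrays among the 7 arrays of the series, and all 18769 probe sets for fly genes were compared between them. Each line 89 array came from animals carrying P{GAL4-Hsp70.PB}89-2-1, a transgene in which the promoter of the heat-shock gene Hsp70 drives GAL4, in 2 copies on one array and in 1 copy on the other. Beside them stood 3 arrays of line P{hs-GAL4}X1, which carries 2 copies of a heat-shock GAL4 transgene, and 2 arrays of w1118, a strain without the transgene. All animals grew at 25 °C and received a heat shock of 37 °C that lasted 30 min. Their glands were taken at 14 h after puparium formation. The shock came at 9 h in the GAL4 animals and at 9.5 h in w1118, so that strain, transgene and this time cannot be told apart in any comparison with w1118. The labels do not say what the 1-copy animals carried in place of the second copy, nor how many animals were pooled. Copy number and any other difference between those 2 sets of animals cannot be told apart, and neither copy number had a second array, so no p-value was given to the copy difference.

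GAL4 is a transcription activator of yeast, where it switches on the genes of galactose use. Flies have no such protein, and geneticists express it in fly tissues to switch on transgenes that carry its binding sites. By 14 h the salivary gland has already released its glue proteins and is nearing its programmed death, which the steroid hormone ecdysone triggers. Comparing 1 copy with 2 copies asks which of the gland's transcripts follow the amount of the activator. The level of GAL4 itself was not measured here.

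The values were intensities on a linear scale, raised to 16 where they were lower. A probe set was counted as higher or lower where the arrays differed at least 2-fold and the brighter of them reached 64. Median intensity was 44.9 with 2 copies and 40.8 with 1 copy, and 18.8% and 21.9% of the probe sets lay under 16. The signal of the 3' end over the 5' end of eIF-4a was 2.71 with 2 copies and 1.74 with 1 copy, against 1.58 to 2.05 on the other 5 arrays. For Act5C the ratio was 2.13 with 2 copies and 1.45 with 1 copy, against 1.60 to 2.02. The middle probe set for 18S ribosomal RNA read 893 with 2 copies, 213 with 1 copy and 64.1 to 199 elsewhere. The 2-copy array held the highest value of the 7 arrays in these 3 measures. In a further actin control its 3' to 5' ratio, 3.24, was above 1 copy (2.16) and w1118 (2.61 and 2.70) but below X1 replicates 2 and 3 (3.30 and 3.95). The part of these measures in the results below was not tested.

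The tissue label was checked against markers. The gland's transcription factor genes fkh and sage read 180.2 and 442 with 2 copies and 180.6 and 339.7 with 1 copy. The glue gene Sgs3 read 1405 and 592, and Sgs7 read 1953 and 964. Of 8 muscle markers, Mlc2, up and Tm2 stayed under 25 on both line 89 arrays, Mlc1, Act88F, sls and bt were detected at 67.4 to 771, and TpnC73F read 12379 and 12389. In midgut and neurons 7 of 9 markers each stayed under 64 on both. Several markers of trachea and cuticle were bright on both, with Gasp at 2464 with 2 copies and 2997 with 1 copy, serp at 800 and 959, and verm at 361 and 518. Cpr64Aa and Cpr65Av stayed under 64 on both. Of 9 such genes TwdlT and Pcp were higher with 2 copies and 0 lower. The summed intensity of the 9 was 17562 with 2 copies, 10349 with 1 copy, 6028 and 6029 in w1118 and 19669 to 21382 in X1. The difference in Pcp alone (10455 with 2 copies, 3080 with 1 copy) was larger than the gap between the line 89 sums. The other members went both ways. Lsp2 and Fbp1, genes known from the fat body, were bright on all 7 arrays, at 5698 and 3240.5 with 2 copies and 6458 and 3141 with 1 copy. In bulk tissue, fewer cells of a type and less RNA per cell cannot be told apart.

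Of the 18769 probe sets, 1251 (6.67%) were at least 2-fold higher with 2 copies than with 1 copy and 1071 (5.71%) were at least 2-fold lower. Past 4-fold there were 289 higher (1.54%) and 174 lower (0.927%). For 1106 of the higher (5.89% of all) and 852 of the lower ones (4.54% of all), the difference also exceeded the largest gap between any 2 replicate arrays of X1 or of w1118. The same count between replicate arrays gave 84 probe sets (0.448%) for X1 replicates 2 and 3 and 294 (1.57%) for w1118. It gave 1536 (8.18%) and 1517 (8.08%) when X1 replicate 1 was set against its fellows. The 2322 (12.4%) that differed by copy number were therefore more than in any replicate pair, though only about 1.5 times the count of the most unlike pairs. As a description over probe sets, which do not replicate each other, Pearson's r of the log2 values was 0.935 between both line 89 arrays. The 1-copy array correlated at 0.927 and 0.928 with w1118, and the 2-copy array at 0.886 and 0.887. Scaling each array to its hybridization controls turned the split to 901 higher and 1700 lower, and median centring to 953 and 1323. Those scalings moved the median difference of the 8452 probe sets with a brighter array of at least 64 from -0.06 to -0.33 and -0.23 on the log2 scale.

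**Figure D1:**
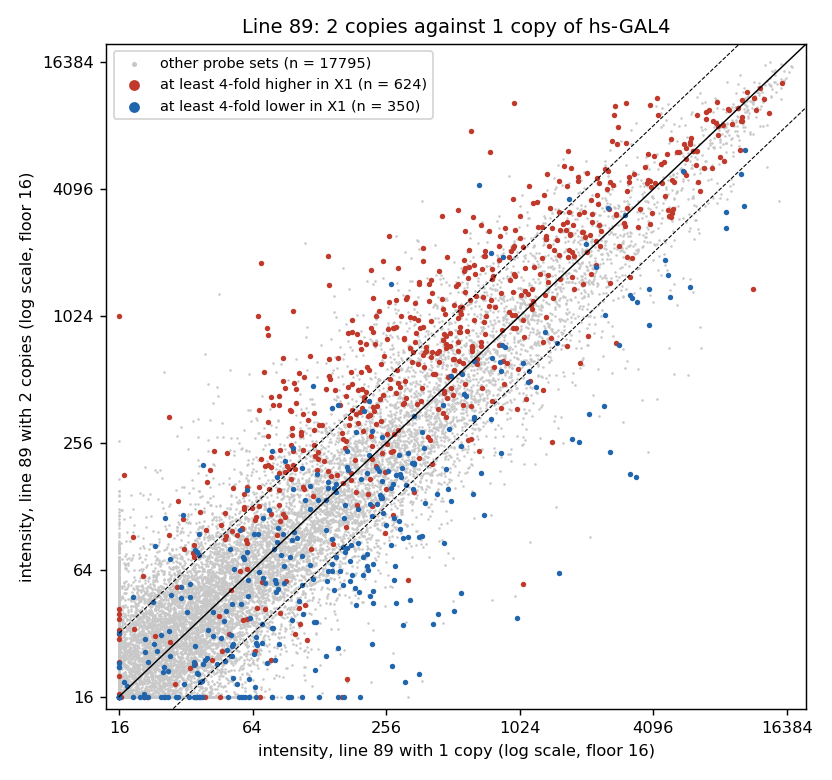
Intensity with 2 copies against intensity with 1 copy in line 89, both on log scales with a floor of 16, 1 point a probe set. Red and blue mark probe sets at least 4-fold higher (624) or lower (350) in X1 than in w1118 by limma, chosen without the line 89 arrays. Dashed lines mark 2-fold. Red points lie mostly above the diagonal and blue points mostly below it.

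The genes with the largest gain were mostly dim, or within 2-fold of w1118, with 1 copy, and 12 of the 15 named were also called higher in X1. Lsd-1 encodes perilipin, a coat protein of lipid droplets. Its intensity was 320 and 510.4 in w1118, 618 with 1 copy, 7728 with 2 copies and 8388, 5026 and 4246 in X1. The 1-copy array stood just above w1118 and the 2-copy array within the range of X1, a 12.5-fold difference (3.64 on the log2 scale). CG15117 read 112 and 97.7 in w1118, 964 with 1 copy, 10505 with 2 copies and 7544, 8368 and 7495 in X1, which made it 10.9-fold higher with 2 copies. The gene ana, which encodes a secreted glycoprotein that holds neuroblasts in their resting state, read 29.1 and 49.1 in w1118, 140.0 with 1 copy, 1969 with 2 copies and 519, 941 and 843 in X1. Here the 2-copy array exceeded every X1 array. CG9737 showed the same order, at 22.6 and 16.8 in w1118, 67.4 with 1 copy, 1022 with 2 copies and 282, 354 and 328 in X1.

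Members of a family of predicted acid phosphatases were among these genes. CG9451 read 14.9 and 14.0 in w1118, 97.3 with 1 copy, 1079 with 2 copies and 2984, 2698 and 2575 in X1, and CG9452 read 142 with 1 copy and 1429 with 2 copies. They were 11.1-fold and 10.1-fold higher with 2 copies. Their relative CG9449 was already at 6430 with 1 copy and reached 9213 with 2 copies, 1.43-fold more. CG4267, at 73.9 and 894, and CG13323, at 26.8 and 339, also stayed near w1118 with 1 copy, and both rose in X1, to means of 1609 and 370.0. CG1143 read 16.9 and 179, and its X1 mean was 119. The odorant-binding protein gene Obp56d read 75 with 1 copy and 831 with 2 copies, with an X1 mean of 453. CG13560 read 50.5 and 570.5, with an X1 mean of 212.

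The last 4 had a bound in place of a fold or were not called higher in X1. Cpr92F, a gene of the chitin-binding cuticle protein family, read 13.2 with 1 copy and 262 with 2 copies, at least 16.4-fold higher, and 46.2 to 74.4 in X1. CG34290 read 40.2 and 489, with 63.8 to 118 in X1. CG12164 read 25.4 and 556, but its w1118 arrays alone differed from 476 to 55.9. CG18130 was below the floor with 1 copy and at 173 with 2 copies, at least 10.8-fold higher, and it was also below the floor in X1 replicate 1.

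The genes with the largest loss fell into 2 kinds. In the first, the 1-copy level was nearer to w1118 and the 2-copy level nearer to X1 on the log2 scale. Cyp4e2, a cytochrome P450 gene, read 5816 and 4121 in w1118, 1537 with 1 copy, 62.1 with 2 copies and 31.6, 40.3 and 41 in X1. It was 24.8-fold lower with 2 copies. Fbp2, which is known from the larval fat body, read 1647 and 2267 in w1118, 996 with 1 copy, 37.7 with 2 copies and 27.2, 54.3 and 52.1 in X1, a 26.4-fold difference. Idgf3, a gene of the imaginal disc growth factor family, read 359 with 1 copy and 20.5 with 2 copies on 1 probe set, and 4784 and 1608 on the other. The 3 probe sets of CG16890 were 12.2-fold to 19.2-fold lower with 2 copies, the brightest of them at 3404 and 177. CG7884, at 516 and 40.7, CG33181, at 1141 and 87.0, and mat, at least 12.2-fold lower, belonged here too. The chromatin gene gpp, which encodes the methyltransferase for a lysine in the core of histone H3, read 320.4 with 1 copy and under 16 with 2 copies, and 13.9 to 50.1 in X1. Its other probe sets above 64 read 255 and 75.9, and 463 and 35.8.

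In the second kind the 2-copy array lay under every X1 array, as it also did for CG16890, and the 1-copy array was above or near X1. Mical encodes an oxidising enzyme that takes actin filaments apart. It read 6186 and 7824 in w1118, 3855 with 1 copy, 232 with 2 copies and 1254, 3107 and 1833 in X1, so the 2-copy array lay under all others. The methuselah gene mth, a receptor gene known for its effect on life span, read 977 with 1 copy, 47.9 with 2 copies and 494 to 791 in X1. For mwh, which shapes the actin hairs of wing cells, one probe set read 15.2 and 11.6 in w1118, 1054 with 1 copy, 54.7 with 2 copies and 546, 1933 and 1298 in X1. Its other probe set went the other way, from 50.6 to 105. CG7330 read 2112 with 1 copy, 91.2 with 2 copies and 59.4 to 107 in w1118, and the neuropeptide gene Capa read 372 and 19.0, so for both the 1-copy array was the brightest of the 7. The gene myd, at 770.5 with 1 copy, 46.1 with 2 copies and 146 to 400 in X1, belonged to this kind too.

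Line X1 provided a choice of genes that did not use the line 89 arrays. The X1 arrays also differed in the 3' to 5' ratio of the spiked control Dap. It was 15.8 to 18.7 in X1, 2.55 and 3.12 in w1118, and 3.96 and 3.95 in line 89. Transgene and this array difference cannot be told apart in X1 against w1118. Against w1118, limma called 1407 probe sets higher (7.5%) and 1997 lower (10.6%) in X1 at an adjusted p under 0.05. Median centring turned this split to 1779 higher and 1429 lower, and hybridization scaling to 2020 and 530. Of the 1407 higher ones, 344 (24.4%) were at least 2-fold higher with 2 copies of the line 89 transgene and 64 (4.55%) were lower, beside 6.67% and 5.71% of all probe sets. The share higher with 2 copies was 35.9% among the 624 that had risen at least 4-fold, 41.3% among the 317 past 8-fold and 50.3% among the 161 past 16-fold. The median copy difference of these classes was 0.67, 0.79 and 1.04 on the log2 scale, against 0 over all probe sets. On the falling side, 248 of 1997 (12.4%) were lower with 2 copies, then 34.9% of the 350 past 4-fold, 49.6% of the 117 past 8-fold and 75.7% of the 37 past 16-fold. The median of the last class was -2.33. Among the 15365 probe sets not called in X1, 5.40% were higher and 4.94% lower. With hybridization scaling the shares past 4-fold were 24.5% of rises and 50.3% of falls. Leaving out X1 replicate 2, X1 replicate 3, w1118 replicate 1 or w1118 replicate 2 cut the X1 rises to 771, 738, 692 and 730, and leaving out X1 replicate 2 or 3 cut the falls to 848 and 925.

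**Figure D2:**
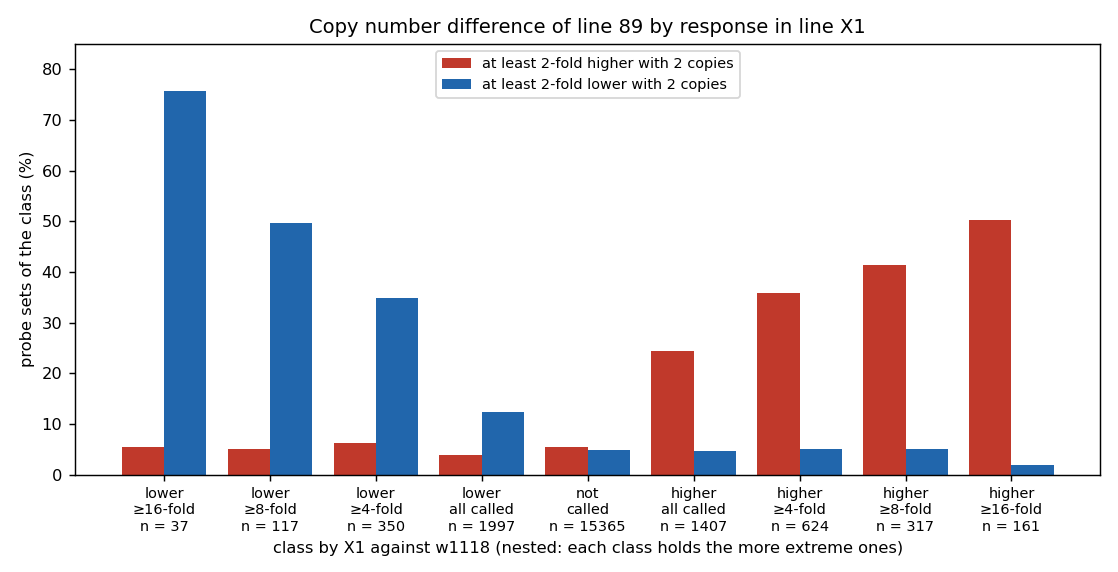
Share of probe sets at least 2-fold higher (red) or lower (blue) with 2 copies than with 1 copy of the line 89 transgene, in percent, by their change in X1 against w1118. Classes are nested, so that the outer classes are part of the inner ones. They were not matched for brightness, and many probe sets not called in X1 were too dim for a copy call. The share higher with 2 copies goes from 5.40% of probe sets not called in X1 to 50.3% of those past 16-fold higher, and the share lower reaches 75.7% of those past 16-fold lower.

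Read from the copy difference, the overlap was partial. Of the 1251 probe sets higher with 2 copies, 27.5% were called higher in X1, 77 were called lower and 830 were not called. Of the 1071 lower ones, 23.2% were called lower in X1, 64 were called higher and 759 were not called. Among the higher ones the 1-copy array lay within 2-fold of the w1118 mean for 856 (68.4%) and the 2-copy array for 405 (32.4%). Among the lower ones these counts were 769 (71.8%) and 520 (48.6%). On the log2 scale the 2-copy array was nearer the X1 mean than the 1-copy array was for 583 of the higher ones (46.6%). For the lower ones this count was 782 (73.0%).

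Several of the strongest X1 genes reached nearly their full level with 1 copy. CG9733 read 2.56 and 6.22 in w1118, 7332 with 1 copy, 9725 with 2 copies and 7099, 9995 and 9056 in X1. CG3770 read 67.4 and 74.7 in w1118, 10279 with 1 copy, 10808 with 2 copies and 10793, 11575 and 11561 in X1. All 5 GAL4 arrays stood far above w1118 in both genes, and the copies differed by 0.41 and 0.07 on the log2 scale, less than the largest gap between replicates. CG15861 (5353 and 6145) and laza (7619 and 8652), which encodes a lipid phosphate phosphatase of photoreceptors, behaved alike. The troponin C gene TpnC73F read 1597 with 1 copy and 2792 with 2 copies on one probe set, and 12389 and 12379 on another. The noncoding RNA lncRNA:CR31781 was at 3265 with 1 copy and 1919 with 2 copies on one probe set and at 4468 and 4371 on another.

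Others were graded. The JAK/STAT ligand gene upd1 read 19.7 and 4.65 in w1118, 376 with 1 copy, 1872 with 2 copies and 4255, 6762 and 5812 in X1. The 4 groups did not overlap, and 2 copies gave 4.98-fold more than 1 copy. CG6023 went from 755 to 6162 between 1 copy and 2 copies, CG14949 from 2737 to 10110, hoe2 from 1023 to 3056, and Tdc1, which encodes the tyrosine decarboxylase that makes tyramine, from 2726 to 9156. For scpr-C both line 89 arrays were low, at 35.0 and 73.8, against 3698, 3916 and 4415 in X1. Of the falls, CG33127 read 3850 and 4304 in w1118, 217 with 1 copy, 47.9 with 2 copies and 44.6, 32.9 and 62.4 in X1. CG3277 read 706 with 1 copy and 116 with 2 copies, under w1118 values of 2718 and 2394.

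**Figure D3:**
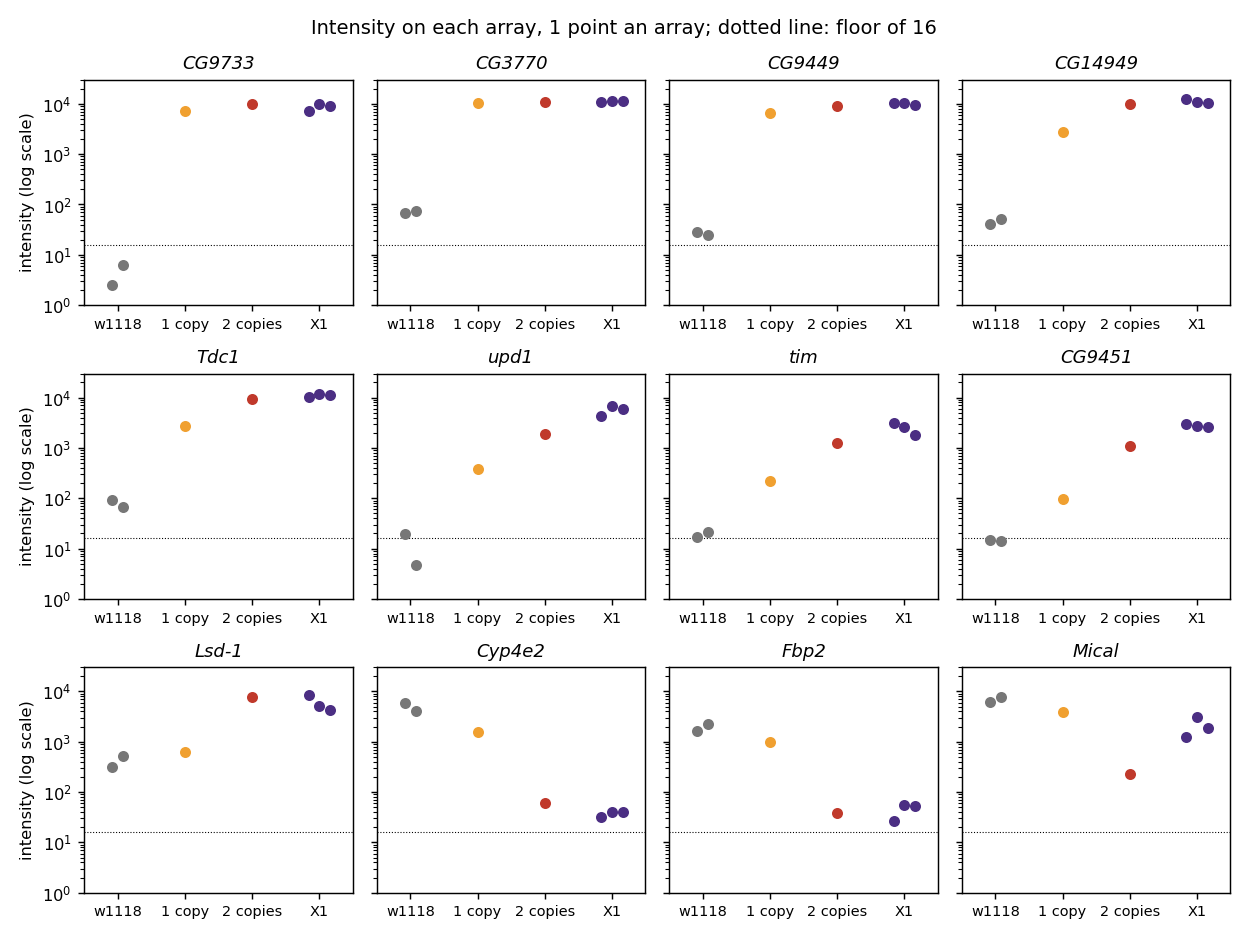
Intensity of 12 probe sets on each of the 7 arrays, on a log scale, 1 point an array: w1118 (2 arrays), line 89 with 1 copy (1), line 89 with 2 copies (1) and X1 (3). The dotted line is the floor of 16. CG9733, CG3770 and CG9449 lie close together on all 5 GAL4 arrays, upd1, tim and CG9451 lie between w1118 and X1 with 1 copy, and Lsd-1, Cyp4e2 and Fbp2 lie nearer w1118 with 1 copy and near X1 with 2 copies.

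For probe sets that rose at least 4-fold in X1 and were at least 4-fold over w1118 with 2 copies, the rise with 1 copy was taken as a share of the rise with 2 copies on the linear scale. Over these 406 probe sets the median share was 47.1%, with quartiles of 26.4% and 84.1%. It was under 50% for 210 of them, between 50% and 90% for 103, and at or above 90% for 93. The share differed with brightness. Its median was 39.3% where the 2-copy intensity was under 1000, 42.5% from 1000 to 4000 and 83.2% at 4000 or more. Intensities near the top of the scale leave little room for a rise, and the part of that limit was not tested. For the 164 matching falls the median share was 79.4% (quartiles 52.8% and 90.8%). On the linear scale, equal folds at each copy give a share above 50% for a fall and below 50% for a rise. The share of a fall therefore cannot tell a loss mostly complete with 1 copy from a graded one. These shares use the w1118 arrays that also chose the X1 genes. They also rest on a choice by the 2-copy array, which kept 406 of 624 X1 rises and 164 of 350 falls. Probe sets that changed with 1 copy but less than 4-fold with 2 copies could not enter, which favours low shares.

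**Figure D4:**
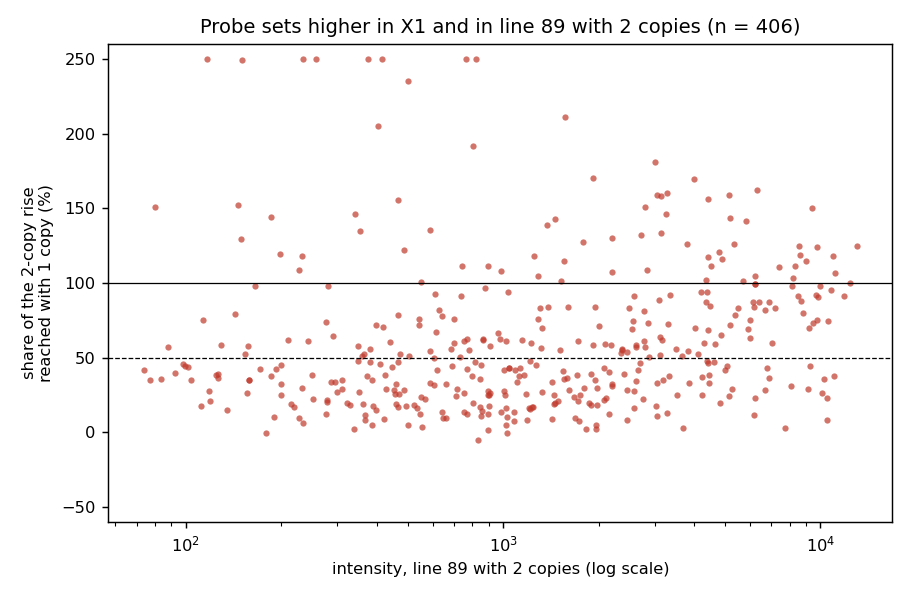
Share of the 2-copy rise over w1118 that was reached with 1 copy, in percent on the linear scale, against the intensity with 2 copies on a log scale. The 406 probe sets rose at least 4-fold in X1 and were at least 4-fold over w1118 with 2 copies. The solid line marks equal rises and the dashed line 50%. 7 points beyond the axis are drawn at its edge. Points under 50% dominate at low and middle intensity, and points around 100% are common at 4000 or more.

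Signalling genes were described next, each gene by its brightest probe set. Over all 11982 genes, 940 (7.85%) were higher and 795 (6.63%) lower with 2 copies, and the median difference was 0. Only 6587 of these genes had a brighter array of at least 64 and could be called. The shares over all genes are therefore a low base for lists of mostly bright genes. In the JAK/STAT pathway, in which cytokines of the Unpaired family activate a receptor, a kinase and the factor Stat92E, 3 of 12 genes were higher and 2 lower (3 and 4 with hybridization scaling). The ligand gene upd2 read 72.4 with 1 copy and 199.8 with 2 copies (663 to 977 in X1), and the receptor-like gene et read 29.3 and 93.4. The opposite held for Stat92E (1887 and 868) and for Ptp61F (433 and 146), a phosphatase gene that restrains the pathway. The list's median of 0.10 turned to -0.14 with hybridization scaling and -0.04 with median centring.

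In the stress kinase pathway JNK, 3 of 13 genes were higher and 4 lower. Ets21C, a transcription factor gene induced by stress, read 29.8 and 26.9 in w1118, 87.9 with 1 copy, 646 with 2 copies and 1021, 1061 and 810 in X1, a 7.35-fold difference by copy number. Jra, the fly gene for Jun, read 353 with 1 copy and 1070 with 2 copies but 465 to 597 in X1, and the phosphatase gene puc read 960.2 and 1958. The kinase genes slpr (2412 and 867) and bsk (383 and 184), the receptor gene wgn (284 and 102) and raw (3465 and 1702), which restrains JNK signalling in the embryo, were lower. Among 17 genes of insulin and TOR signalling, 2 were higher and 0 lower, but 1 was higher and 2 lower with hybridization scaling. Ilp8, a relaxin-like hormone gene known to delay metamorphosis after tissue damage, read 1351 with 1 copy and 4836 with 2 copies, and ImpL2, a secreted insulin antagonist, read 4278 and 9248. Of 11 clock genes, tim, per and cry were higher and dco lower. The timeless gene tim read 90.1 and 80.5 in w1118, 1131 with 1 copy, 4249 with 2 copies and 7051, 8714 and 7573 in X1, and per read 29.6 with 1 copy and 135 with 2 copies. In both genes 1 copy lay between w1118 and 2 copies, whereas cry (241 and 712) exceeded X1 (167 to 214) with 2 copies.

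Of 43 measured genes of the Toll and IMD immune pathways and their effectors, 10 were higher and 4 lower with 2 copies, and the median was 0.33 (0.09 with hybridization scaling). The IMD inhibitor gene pirk read 314 and 325 in w1118, 1684 with 1 copy, 6206 with 2 copies and 2839, 4894 and 4494 in X1. The adaptor gene Fadd read 142 and 640.4, with 555 to 761 in X1. The drosomycin-like gene Drsl5 read 172 with 1 copy and 779 with 2 copies but only 184 to 236 in X1, and the bomanin gene BomS2 read 842 and 2192 with 123 to 404 in X1, a difference under the gap between X1 replicates. Lower with 2 copies were Drsl3 (128 and 35.6), the Toll inhibitor gene cact (3562 and 1388), the protease gene grass (4571 and 2014) and the prophenoloxidase gene PPO2 (151 and 68.1). Among 54 serine proteases and serpins 5 were higher and 1 lower. The serpin genes Spn55B (722 and 2562) and Spn43Aa (3933 and 927) moved in opposite directions, with X1 means of 4631 and 641.

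Some markers of hemocytes, the circulating blood cells, stood higher with 2 copies, and their part in the immune counts was not tested. Of 8 such genes 3 were higher and 1, vkg, lower (158 and 70.7), and their summed intensity was 1933 with 2 copies, 846 with 1 copy, 898 and 988 in w1118 and 899 to 1326 in X1. Col4a1, a collagen IV gene, read 1338 and 409, which made up most of the gap between the line 89 sums. The gene srp read 200 and 165. The more specific markers were dim, with Hml at 54.7 and 9.38, Pxn at 141 and 41.2, He at 80.3 and 7.81, NimC1 at 41.5 and 47.9, and eater under 16 on both arrays. Fat body markers summed to 20730 and 13994, against 13937 to 15219 in w1118. The difference in Lsd-1 alone was larger than this gap, and the other members went both ways, with apolpp at 3886 and 2622 and Fbp2 as given above.

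Glue and late secretion genes had the largest share of higher genes among the lists of 20 or more. Of 22 genes, 8 (36.4%) were higher with 2 copies and 1 was lower, with a median of 0.54 (0.39 with hybridization scaling). Sgs1 read 470.0 and 684 in w1118, 23.3 with 1 copy, 190.3 with 2 copies and 441, 210 and 179 in X1, so that its lowest value was on the 1-copy array. Sgs8 read 589 with 1 copy and 2050 with 2 copies, inside the w1118 range of 1520 to 2709. The new glue genes ng4 (44.0 and 470) and ng1 (20.6 and 144) were also high in X1 replicate 1, at 760 and 544, but not in the other X1 arrays, at 52.4 and 72.9 and at 32.2 and 42.2. Their copy difference was under the gap between X1 replicates. Pgant9, which encodes an enzyme that adds sugars to secreted proteins, read 579 and 184. In the secretory pathway, 8 of 56 genes were higher and 1 lower, led by the trafficking genes Rab9 (16.2 and 85.2), Rab27 (at least 4.58-fold) and Rab32 (399 and 1206) and by TRAM (822 and 2682), a gene for protein entry into the endoplasmic reticulum. Rab35 read 398 and 127. The median of this list, 0.18, turned to -0.05 with hybridization scaling.

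Ecdysone cascade genes gave 5 higher and 2 lower of 26, with a median of -0.09, but 2 higher and 4 lower with median centring and with hybridization scaling. The nuclear receptor gene ftz-f1, a competence factor of the prepupa, read 356 and 663 in w1118, 460.3 with 1 copy, 1543 with 2 copies and 614, 302 and 271 in X1. The 2-copy array was the highest of the 7. MsrA, a methionine sulfoxide reductase gene induced by ecdysone, read 374 and 904 with 934 to 1059 in X1, and Kr-h1 read 58.6 and 126. ImpE1 (229 and 71.4) and Cth (239 and 111) were lower with 2 copies. Of 21 cell death genes 1 was higher and 3 lower. The caspase gene Dcp-1 read 906 with 1 copy and 227 with 2 copies, beside 233 and 315 in w1118 and 407 to 446 in X1, so the 1-copy array was the highest of the 7. Among 24 autophagy genes Uvrag was higher (567.5 and 1614), Atg3 (898 and 355) and Atg101 (486 and 242) were lower, and 18 of 24 differences were below 0. Loess normalization turned that count to 2 higher and 1 lower.

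Of 29 heat shock and chaperone genes 3 were higher and 1 lower, but 1 was higher and 2 lower with hybridization scaling. The mitochondrial chaperone gene Hsc70-5 read 542 with 1 copy and 1569 with 2 copies, the co-chaperone genes stv and Stip1 read 3058 and 6742, and 1055 and 2179, and the mitochondrial Trap1 read 103 and 30.5. The list's median of 0.23 turned to -0.01 with hybridization scaling. Hsp70 transcripts, which the promoter of the transgene is taken from, were read by probe sets that each list several genes. The brighter of those for Hsp70Ba, Hsp70Bb, Hsp70Bbb and Hsp70Bc read 462 and 2822 in w1118, 4230 with 1 copy, 10184 with 2 copies and 5019, 2524 and 2192 in X1. The one for Hsp70Aa and Hsp70Ab read 6795 with 1 copy and 10516 with 2 copies. The 2-copy array was the highest of the 7 on both, but the w1118 replicates differed among themselves by more than the copies did. The same held for a probe set of Hsp70Bb and Hsp70Bc, at 2915 with 1 copy and 6948 with 2 copies. The dimmer probe set for Hsp70Ba, Hsp70Bb, Hsp70Bbb and Hsp70Bc read 17.7 and 16.3 in w1118, 16.05 with 1 copy and 151 with 2 copies. In X1 it read 65.98, 13.5 and 22.9. Its 9.42-fold copy difference exceeded every replicate gap.

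Metabolic lists mostly stayed near the share of all genes. Among 159 detoxification genes 15 were higher and 4 lower. The cytochrome P450 gene Cyp6a20 read 40.4 and 29.8 in w1118, 746 with 1 copy, 2584 with 2 copies and 1675, 2733 and 2656 in X1, while Cyp6a8 (18.6 and 105) was above every X1 array with 2 copies. Catalase, Cat, read 3898 and 1368, beside 667 to 1057 in X1. In lipid metabolism, ACC, the gene for the enzyme of the committed step of fatty acid synthesis, read 150 with 1 copy, 457 with 2 copies and 557 to 1603 in X1, and the sterol-binding gene Npc2b read 630.5 and 146. The glycolytic genes Pgi (540.3 and 1326) and Pglym78 (342 and 1179) were higher, with 0 of 17 lower. Of 10 fly genes of galactose metabolism, the pathway GAL4 controls in yeast, CG10467 was lower (502 and 110.3) and UGP higher (69.3 and 141). Amino acid and sugar transporters went both ways, with the arginine transporter gene slif 3.96-fold higher, at 1553 with 2 copies, and the citrate transporter gene Indy at 5543 and 1558. Oxidative phosphorylation had 2 of 76 higher and 0 lower, but 0 higher and 2 lower with hybridization scaling. Cuticle protein genes had 9 of 102 higher and 4 lower, among them Cpr47Eb (42.2 and 394), which no X1 array matched, and Pcp (3080 and 10455).

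Several gene lists of the nucleus and of growth had medians below 0, but their counts past 2-fold did not all follow. The share lower was 15.4% for DNA replication and the cell cycle, 10% for ribosome biogenesis, 2.38% for the proteasome and 0% for aminoacyl-tRNA synthetases. It was 6.63% of all genes. For ribosome biogenesis the share higher was 15%, beside 7.85% of all genes. Of 26 genes of DNA replication and the cell cycle, 0 were higher and 4 lower (RnrL, Mcm3, mad2 and Mcm6), with a median of -0.49. For RnrL, the large subunit of ribonucleotide reductase, the values were 218 with 1 copy and 79.5 with 2 copies. Among 58 coactivator and Mediator genes, which bridge activators such as GAL4 to RNA polymerase, 0 were higher, 4 lower and 46 of 58 below 0, with a median of -0.36. MED27 read 253 and 232 in w1118, 236 with 1 copy, 83.2 with 2 copies and 67.8, 75.4 and 70.7 in X1, so the 2-copy array lay with X1 and the 1-copy array with w1118. MED16 (208 and 73.8), MED18 (356 and 159.8) and the Brahma complex gene osa (710.0 and 320) were lower as well. MED18 with 1 copy lay above w1118 (149 and 167) and above X1 (210 to 219). The median was -0.32 for 42 proteasome genes, -0.40 for 20 genes of ribosome biogenesis and -0.22 for 32 aminoacyl-tRNA synthetases, of which 0 were past 2-fold with a brighter array of at least 64. These 5 medians were below 0 with each scaling tried. Cytosolic ribosomal protein genes stayed level, with 1 of 41 higher, 0 lower and a median of -0.09. Mitochondrial ribosomal protein genes had 4 of 69 in each direction, with mRpL36 at 117 and 662 and mRpL55 at 25.0 and 174. Prosbeta2R2, a proteasome subunit gene, read 14.1 and 9.30 in w1118, 89.6 with 1 copy, 468 with 2 copies and 528, 628 and 647 in X1. Further list genes named had copy differences under the largest gap between replicate arrays. These were puc, et, grass, vkg, TwdlT, ImpE1, Cth, Atg101, UGP, Mcm6 and osa.

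**Figure D5:**
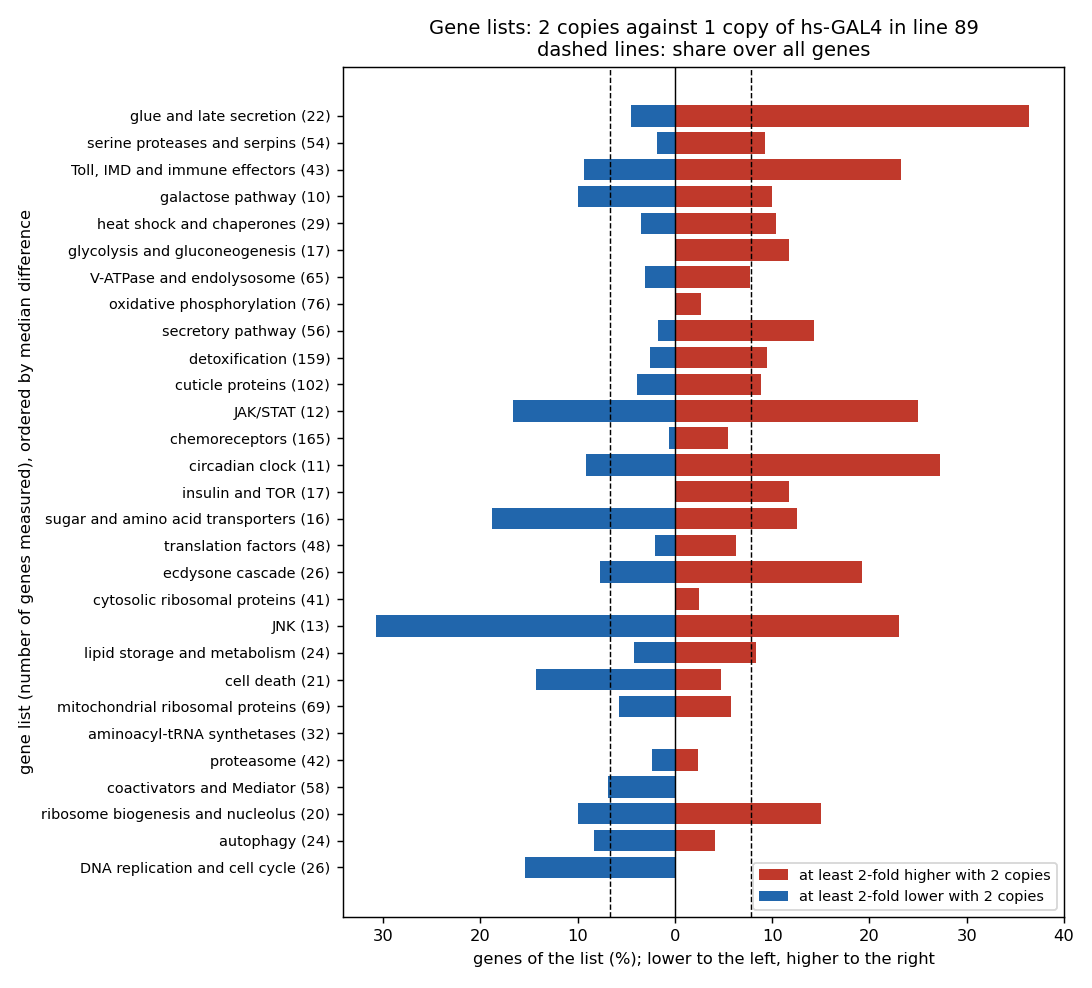
Share of the measured genes of each list that were at least 2-fold higher (red, to the right) or lower (blue, to the left) with 2 copies than with 1 copy, in percent, each gene by its brightest probe set. Numbers in brackets are genes measured. Lists are ordered by their median difference from DNA replication and cell cycle (-0.49) to glue and late secretion (0.54). Dashed lines mark the shares over all genes, 7.85% and 6.63%, which count genes too dim for a call.

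The copy difference also varied with gene length. Among genes whose brighter line 89 array reached 64, ranked by the span of the gene in the annotation, the median difference was 0.15 in the shortest of 5 equal classes, then 0.02, -0.08, -0.20 and -0.23 in the longest. In the shortest class 20.6% were higher and 9.52% lower with 2 copies, and in the longest 12.1% and 18.1%. The 3' to 5' ratios of eIF-4a and Act5C given above also differed between the 2 arrays, and the part of those ratios was not tested.

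Genes that differed were often next to each other in the genome. Of 935 genes higher with 2 copies and placed in the annotation, 23.9% had a neighbour that was also higher, beside 15% of all 11899 placed genes. For the lower genes the shares were 21.7% of 794 and 12.8%. The placed genes include those too dim for a call, and brightness was not matched. The runs below were chosen after their values were seen. The longest was 6 genes lower with 2 copies, CG7497, Pep, CG43085, Krn, CG7484 and Crtc, among them Krn, a ligand gene of the EGF receptor, at 845 with 1 copy and 219.6 with 2 copies. A run of CG12310, CG13461 and CG18649 read 373, 45.1 and 163 with 1 copy, 3584, 1296 and 1731 with 2 copies and 5729, 4648 and 4466 in X1 replicate 1. In X1 replicates 2 and 3 the same genes read 40.6 to 1083, so the 2-copy array shared their high level with only 1 of the 3 X1 arrays. The bomanin genes BomBc2, BomS2 and BomT2 and the Nimrod genes NimA, NimB1 and NimB2, which belong to a family of phagocytosis receptors, formed further runs of higher genes.

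Among 165 chemoreceptor genes, 147 stayed under 64 on both arrays, 9 were higher and 1 lower. The lower one was the ionotropic receptor gene Ir67b, which read 0.0354 and 0.150 in w1118, 161 with 1 copy, 0.0693 with 2 copies and 381, 503 and 351 in X1. The 1-copy array thus lay with X1 and the 2-copy array with w1118, at least a 10.1-fold difference. The yolk protein gene Yp1, one of 5 genes checked as sex markers, read 89.1 with 1 copy and 27.6 with 2 copies, Yp2 read 100.5 and 76.0, and Sxl read 148 and 156.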

How the data were processed

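Affymetrix fly arrays, 1 per sample, were analysed from the deposited series table. The authors made the values with dChip, as intensities on a linear scale normalized to 1 baseline array of median intensity 145, per the series text. No dChip version or model is given in the sources used here. The table held 18952 probe sets in 7 columns. The 183 Affymetrix control probe sets were left out. Platform annotation gave 1 symbol for 13647 probe sets, several for 402 and none for 4720, and 13544 matched RefSeq (Release 6) by Entrez gene.

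A floor of 16 was set on each intensity before log2 was taken. The copy difference is the 2-copy array minus the 1-copy array, and a fold against a value at or under 16 is written as "at least". X1 (3 arrays) and w1118 (2) were compared with limma 3.58.1 (lmFit and eBayes, two-sided, no covariates) under R 4.3.3, with Benjamini-Hochberg adjustment over 18769 probe sets and a threshold of 0.05. The fit was tested on simulated data. The series text calls these arrays biological replicates. The number of arrays limits the precision.

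Named genes were the 15 largest differences in each direction past 2-fold and past every replicate gap, the 15 largest X1 rises and 5 largest falls, and up to 4 members of each list in each direction. Others were chosen after their values were seen. 1 gene among the largest losses is not reported here. The members and lists were chosen with earlier results of these data known. The lists were last edited after the deposited values and annotation had been opened. Alternatives covered floors of 1 and 64, median centring, quantile, loess and hybridization control scaling, thresholds, a variance trend, a replicate block and leaving out each array.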

Additional observations from a re-analysis of the deposited data

How the results depend on the processing

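The copy difference has 1 array a side, so no setting can replace a replicate. The counts of 1251 higher and 1071 lower became 2007 higher with no minimum intensity, 648 and 543 with a minimum 4 times as high, 2090 and 2187 at 1.5-fold, 289 and 174 at 4-fold, and 1700 lower with hybridization control scaling. The share of higher among these calls was 53.9%, 41.9% with median centring and 34.6% with hybridization control scaling. Gaps taken without X1 replicate 1, chosen after seeing the data, left 1224 higher and 1036 lower beyond every gap. For X1 against w1118, 1407 higher and 1997 lower became 1201 lower with a floor of 1, 720 and 672 with a floor of 64, and 530 lower with hybridization control scaling. The X1 split turned to mostly higher with a floor of 1 (1211 and 1201), a floor of 64, median centring (1779 and 1429), hybridization control scaling (2020 and 530) and a group mean of at least 100 (1485 and 1435). Leaving out each array gave 692 to 1939 higher and 848 to 2231 lower. A block on replicate number left limma with 0 higher and 0 lower calls, with 4491 probe sets at an unadjusted p under 0.05. The deviations of arrays of equal number correlated at -0.05 and -0.01. With only 2 such pairs, these values cannot show whether arrays of equal number shared more than the number. X1 rises past 4-fold that were higher with 2 copies (35.9%) became 30.8% with a floor of 1, 29.1% with median centring and 24.5% with hybridization control scaling, and 34.5% to 38.0% without each array. The falls that were lower (34.9%) became 24.1% with a floor of 1, 40.6% with a floor of 64, 50.3% with hybridization control scaling and 42.6% with a group mean of at least 100, and 29.1% to 37.8% without each array. The cause of these shifts was not tested. The copy split turned from mostly higher to mostly lower with median centring (953 and 1323), hybridization control scaling (901 and 1700) and a 1.5-fold threshold. Of the named genes' copy differences under the alternatives, 242 stayed within the replicate spread and 40 moved. A search of promoters for the GAL4 motif was planned and not run. Probe sets under 64 on both arrays have no call, so a small difference there was not detectable.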
